A study of Mus musculus with 4 samples.

Results

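The genes of the cohesin complex were examined in maps of H3K36me3 in mouse spermatocytes, as 4 meiotic genes (Rec8, Rad21l, Smc1b and Stag3) and 5 general genes (Rad21, Smc3, Stag1, Nipbl and Wapal). These 9 genes of the 22367 protein-coding genes in the annotation were chosen by name, with no measured value in the rule, and all 9 were found on mm9, the mouse genome build of the lists. Cohesin is a ring of an SMC1 protein, an SMC3 protein and a kleisin, to which a STAG protein binds, and it holds sister chromatids together and organises chromatin loops. In meiotic cells, SMC1B, the kleisins REC8 and RAD21L, and STAG3 take the places of the general subunits SMC1A, RAD21 and STAG1 or STAG2 in part of the complexes, while SMC3 is shared. NIPBL loads the ring onto chromatin, and WAPL, the product of Wapal, opens it for release. H3K36me3 is laid down along transcribed genes by SETD2, which travels with elongating RNA polymerase II, so it is usually low at the start of a gene and high over its body. PRDM9, the protein that selects recombination hotspots, can also place it on nucleosomes beside its binding sites.

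ChIP-seq was carried out on germ cells of 14-day-old mice of C57BL/6J (B6) and of B6.Cg-Prdm9<tm1.1Kpgn>/Kpgn (KI), a knock-in on the B6 background in which the last exon of Prdm9, encoding the zinc fingers that bind DNA, came from the CAST/EiJ strain. No treatment is given for either strain. Each strain had 2 biological replicates, which the authors merged before calling peaks, and 1 input. The input samples are labelled 15 days, and the antibody field of the labels reads H3K36me6 where the titles read H3K36me3.

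For each strain there was a list of broad enriched regions and a list of narrow refined peaks within them, both holding positions only. Broad regions numbered 54458 in B6 and 66566 in KI, and after overlapping or adjoining ones were joined they formed 39620 and 48863 regions over 446 and 425 Mb. The B6 list held 58502 refined peaks and the KI list 72692. Edges of broad regions fell on a grid of 500 bp, so a difference of 500 bp between edges is a single step. With 1 pooled list per strain, no value below has a replicate error, no difference between strains or between genes was tested, and the depth behind a call is not in the lists. The paper reports more aligned ChIP reads in total for KI than for B6. The part of this depth in the strain differences given here was not tested. All 8 spermatocyte marker genes examined were at least 50% covered in both strains, from 82.4% for Spo11 to 100% for Hormad1. Over all protein-coding genes, 43.0% in B6 and 41.2% in KI were at least 50% covered. Alb, Apoa1, Hbb-b1 and Neurod1, from a list of genes of other tissues, were at 0% in both strains. The other 2 genes of that list were covered in part, Myh6 over 24.0% in B6 and 11.997% in KI and Ins2 over 9.59% and 11.99%. Of 4 Leydig cell markers, Cyp17a1 and Insl3 were at 0% in both strains, Cyp11a1 was covered over 0% in B6 and 1.51% in KI, and Star lay whole within a broad region in both. Sertoli cell markers differed between the lists. Wt1 was covered over 71.7% of its span in B6 and 8.49% in KI, Sox9 over 45.2% and 0%, Amh over 42.0% and 0.333%, Clu over 29.7% and 0%, and Inha over 0% in both. The Amh values came from a region that began upstream of the gene, at chr10:80261501 in both strains. It ended at 80269000 in B6 and at 80268000 in KI. The part that a difference in Sertoli markers between the preparations has in the strain differences given here was not tested.

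All 9 cohesin genes were covered by broad regions over most of their length in both strains. Coverage, the share of the span from the first to the last annotated base of a gene that lay in broad regions, ranged from 89.9% (Stag1) to 100% (Rad21l) in B6 and from 81.1% (Nipbl) to 100% (Rad21l) in KI. At least 50% of the span was covered in 9 of 9 genes in each strain, beside 43.0% of all protein-coding genes in B6 and 41.2% in KI. Among the 8919 genes that passed this limit in both strains, the median coverage was 94.3% in B6 and 92.5% in KI, so the members lay near the middle of the marked genes. The meiotic genes were covered over 96.9% of their summed length in B6 and 96.5% in KI, and the general genes over 91.9% and 86.4%. Over the representative transcripts alone the values were 96.9% for both groups in B6, and 96.5% for the meiotic and 91.7% for the general genes in KI, so the difference in B6 was not seen on that measure. Single genes of both groups overlapped in coverage, since Rec8 (91.5% in B6 and 84.7% in KI) lay below Smc3 (98.6% in both). The groups also differ in length, which is 7.36 to 67.3 kb for the meiotic genes and 29.2 to 361 kb for the general ones.

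**Figure D1:**
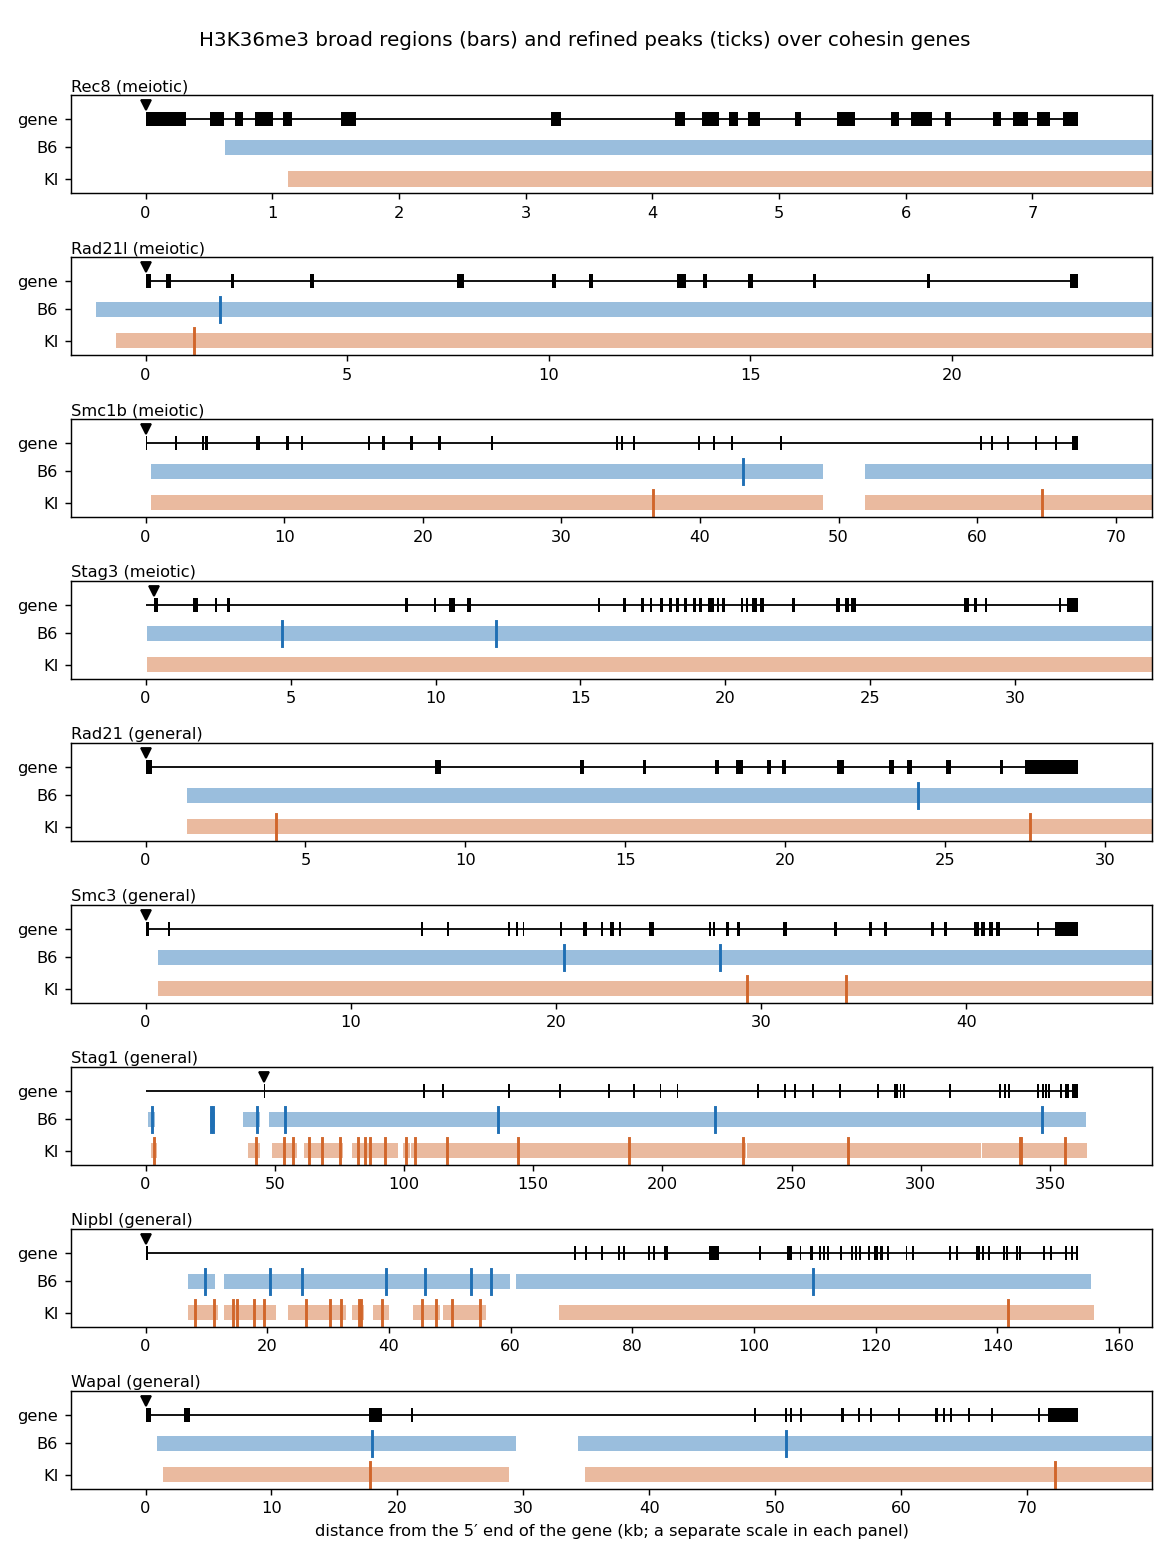
Each panel shows 1 cohesin gene from its 5′ end on the left (distance in kb, a separate scale for each gene), with exons of the representative transcript as black boxes, its start as a triangle, broad regions as bars and the middle of each refined peak as a tick, for B6 (blue) and KI (orange). Bars run on past the ends of the genes, 7 of the 9 genes have at most 2 broad regions in either strain, and only Stag1 and Nipbl have more regions in KI than in B6.

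Sequences at the gene starts are shown first, because the place where coverage begins is one of the main differences among these genes. Each is on mm9, reads 5′ to 3′ on the strand of the cohesin gene, and has its CpG dinucleotides in capitals. The first pair fills the whole interval between a meiotic gene and a divergent neighbour, and the second pair is the 200 bases before the start of the representative transcript of Rad21l, whose start was covered, and of Stag1, whose start was not.
Stag3 to Gpc2, chr5:138721234-138721467 (plus strand): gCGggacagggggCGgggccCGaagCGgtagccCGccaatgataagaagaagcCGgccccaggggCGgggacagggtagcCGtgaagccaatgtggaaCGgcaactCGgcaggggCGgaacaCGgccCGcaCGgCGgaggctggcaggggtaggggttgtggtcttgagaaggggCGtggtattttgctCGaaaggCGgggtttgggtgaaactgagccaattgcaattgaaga
Smc1b to Ribc2, chr15:84962388-84962528 (minus strand): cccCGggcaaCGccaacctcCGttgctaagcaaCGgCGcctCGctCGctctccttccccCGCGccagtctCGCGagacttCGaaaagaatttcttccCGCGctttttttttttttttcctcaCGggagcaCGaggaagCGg
Rad21l upstream, chr2:151494270-151494469 (minus strand): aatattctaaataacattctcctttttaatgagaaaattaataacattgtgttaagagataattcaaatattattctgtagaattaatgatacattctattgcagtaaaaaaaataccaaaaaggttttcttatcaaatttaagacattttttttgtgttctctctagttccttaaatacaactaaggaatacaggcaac
Stag1 upstream, chr9:100543667-100543866 (plus strand): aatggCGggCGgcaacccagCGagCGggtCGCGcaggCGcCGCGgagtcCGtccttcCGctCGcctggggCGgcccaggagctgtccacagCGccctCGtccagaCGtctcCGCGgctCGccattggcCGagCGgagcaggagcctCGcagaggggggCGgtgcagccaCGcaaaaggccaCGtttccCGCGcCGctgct
The interval beside Stag3 holds 18 CpG in 234 bases and the one beside Smc1b 17 in 141 bases. The stretch before Stag1 holds 28 in 200 bases, and the stretch before Rad21l holds 0. Over the 500 bp on either side of the start of the representative transcript, the coding transcript with the greatest length in exons, the ratio of observed to predicted CpG was 0.243 for Rad21l, 0.491 for Rec8, 0.704 for Smc1b and 0.762 for Stag3. It was higher in each general gene, at 0.877 for Rad21, 0.908 for Wapal, 0.928 for Smc3, 0.965 for Nipbl and 1.00 for Stag1. The median over the starts of 22359 genes was 0.557, with quartiles of 0.228 and 0.773, so the meiotic starts lay within the range of the middle genes and all 5 general starts above it. Of the member starts, only those of Rad21l and Stag3 were covered, and these have the lowest and the highest ratio of the meiotic genes.

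Rec8 encodes the kleisin that holds sister chromatids together until the meiotic divisions. The gene (chr14:56236874-56244232, plus strand) was the shortest member at 7.36 kb, and it lay in a single broad region in each strain. Coverage began 627 bp from the 5′ end in B6 and 1127 bp in KI, which is 1 grid step later and accounts for the whole difference between 91.5% and 84.7%. Of the 20 exons of its representative transcript, 18 lay wholly in the region in B6 and 15 in KI. It was the only member with no refined peak in either strain. The region did not stop at the 3′ end, but ran on for 17.8 kb in B6 and 9.77 kb in KI over Ipo4, an importin gene on the opposite strand whose annotated end is 4 bp from that of Rec8. Ipo4 was covered over 100% and 96.0% of its span, and in B6 the region also took in 91.8% of Tm9sf1. Marks from Rec8 and from its convergent neighbour cannot be told apart in these lists.

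Rad21l encodes a kleisin found in meiotic prophase. The gene (chr2:151471140-151494269, minus strand, 23.1 kb) was the only member covered over 100% of its span in both strains, and all 13 exons of its transcript lay in the region. Its broad region began upstream of the gene, at -1231 bp from the 5′ end in B6 and -731 bp in KI, 1 step apart, and ended 4.64 kb past the 3′ end in both. No other member had its annotated 5′ end in a broad region. A refined peak stood in the second intron in each strain, 1.85 kb from the 5′ end in B6 and 1.21 kb in KI. These peaks did not overlap, and over all protein-coding genes just 19.0% of B6 and 15.9% of KI peaks overlapped one of the other strain. Its start had the lowest CpG ratio of the 9, while that of Stag3-001, the other covered transcript start, had the highest of the meiotic genes.

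Smc1b encodes the meiotic SMC1 protein. Its gene (chr15:84895121-84962387, minus strand, 67.3 kb) had the same edges within its span in both lists. Coverage was 94.96%, began 387 bp from the 5′ end, and was broken once, by a gap of 3 kb in intron 19 (chr15:84910501-84913500) that was identical in B6 and KI. Of its 25 exons, 24 lay wholly in broad regions. Ribc2, which encodes a protein of ciliary and flagellar microtubules, starts 141 bp away on the other strand and was covered over 100%, so that just 500 bp, a single grid step, separated the marked region of Smc1b from that of Ribc2 in either strain. The second region of Smc1b ran past its 3′ end into Fam118a, on the opposite strand. Refined peaks were all intronic, with 1 in B6 and 2 in KI. None overlapped between the strains, beside shares of 19.0% in B6 and 15.9% in KI over all protein-coding genes.

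Stag3 encodes the STAG protein of meiotic cohesin. The gene (chr5:138721468-138753621, plus strand, 32.2 kb) was covered over 99.9% in both strains, from 33 bp after its 5′ end onward, and all 34 exons of its transcript lay in the single broad region. That region ran 16.4 kb past the 3′ end in B6 and 18.4 kb in KI, where no gene is annotated. Gpc2, a glypican gene that starts 234 bp away on the other strand, was covered over 78.5% in B6 and 81.8% in KI. Between the regions of the pair lay an unmarked stretch of 500 bp in B6 and 1000 bp in KI, which held the CpG-rich interval printed above. There were 2 intronic refined peaks in B6, 4.70 and 12.1 kb from the 5′ end, and 0 in KI.

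Among the general genes, the kleisin gene Rad21 (chr15:51794151-51823306, minus strand, 29.2 kb) and the shared Smc3 (chr19:53674886-53720323, plus strand, 45.4 kb) looked alike in both strains. Rad21 was covered over 95.5% from 1306 bp after its 5′ end, and Smc3 over 98.6% from 615 bp, with the same values in B6 and KI and a single broad region each. The region over Smc3 was the same 50 kb in both lists, and that over Rad21 ended 1.5 kb nearer to the gene in KI. Exons outside the regions were the first of Rad21 and the first of Smc3, with 13 of 14 and 28 of 29 covered. Rad21 held 1 refined peak in B6 and 2 in KI, and Smc3 held 2 in each. No peak in either gene overlapped a peak of the other strain, beside shares of 19.0% in B6 and 15.9% in KI over all protein-coding genes.

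Wapal encodes the release factor. The gene (chr14:35487114-35561169, plus strand, 74.1 kb) was covered over 92.1% in B6 and 90.03% in KI, beginning 887 and 1387 bp from the 5′ end. Like Smc1b, it was broken by 1 intronic gap present in both strains, of 5 kb in B6 (chr14:35516501-35521500) and 6 kb in KI, in intron 4. All exons but the first, 18 of 19, lay in the regions. Refined peaks numbered 2 in each strain. The B6 peak 18.0 kb from the 5′ end, the widest of any member at 1285 bp, held a KI peak of 534 bp within it over coding exon 3.

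The gaps in Smc1b and Wapal were stretches of repeated sequence. A 100-base window was taken at every base of each gap and looked for elsewhere in the genome on both strands, 100 bases being the length of the reads before trimming. In the Smc1b gap, 92.0% of the windows had an exact copy elsewhere, with a median of 1434 places in the genome for a window, and in the Wapal gap of B6 100% had, with a median of 2003.5 places. In the stretches of the 9 genes covered in both strains, 1.70% of windows had a copy. Reads that did not align to a unique position were discarded by the authors, so such stretches could hold few reads. Whether this had a part in either gap was not tested. The windows nearest to the middle of each gap that had a copy are shown in lower case, on the strand of the gene, as examples of sequence in which a read has no single origin.
Smc1b gap, chr15:84911992-84912091 (minus strand): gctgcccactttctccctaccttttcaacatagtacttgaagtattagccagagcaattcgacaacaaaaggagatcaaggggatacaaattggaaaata
Wapal gap, chr14:35518951-35519050 (plus strand): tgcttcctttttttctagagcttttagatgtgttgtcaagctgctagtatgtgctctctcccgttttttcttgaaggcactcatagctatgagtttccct
The window from Smc1b occurs at 10 places in mm9 and the one from Wapal at 1801. The same share was taken at the starts of the genes. In the uncovered bases at the 5′ ends of Rec8, Smc1b, Rad21, Smc3, Nipbl and Wapal, 0% of 100-base windows had a copy.

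Stag1 and Nipbl were the members whose number of broad regions differed between strains. Stag1 encodes a general STAG protein, and its gene (chr9:100498217-100858964, plus strand) is the longest member at 361 kb. Coverage was 89.9% in B6 and 85.6% in KI, but the number of separate broad regions was 4 in B6 and 9 in KI. The annotated span begins with a transcript, Stag1-009, that starts upstream of the representative transcript Stag1-001, and most uncovered bases lay in that leading stretch. Over Stag1-001 alone the coverage was 99.3% in B6 and 96.0% in KI, beginning 2134 and 3134 bp from its start. In B6, 1 region of 316 kb ran from there past the end of the gene. The longest region in KI was 129.5 kb, and 6 uncovered stretches of 0.5 to 3.5 kb broke the same span.

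Nipbl (chr15:8241225-8394463, minus strand, 153 kb) had 3 regions in B6 and 8 in KI, and coverage of 93.8% and 81.1%, the largest strain difference of the 9 genes at 12.7 percentage points. Coverage began 6963 bp from the 5′ end in both strains, later than in any other member when measured from the representative transcript. Every gap within Nipbl lay in intron 1, where B6 had gaps of 1.0 and 1.5 kb and KI had 7 of 0.5 to 12 kb. Unlike the gaps of Smc1b and Wapal, the largest of these, of 12 kb in KI, had exact copies of just 0.308% of its 100-base windows. With windows of 50 bases the share was 6.17%, beside 5.08% in the stretches of the 9 genes covered in both strains. Repeats that differ between copies were not counted. Gaps in which most windows had a copy were not limited to Smc1b and Wapal. Of the gaps of 0.5 kb found in Stag1 in KI alone, the one at chr9:100600501-100601000 had copies of 53.8% of its 100-base windows. The median there was just 2 places for a window. The share was 71.8% in the one at chr9:100821501-100822000, with a median of 2192 places, and 0% in the one at chr9:100730501-100731000.

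These strain differences lay mostly in first introns. Intron 1 of Nipbl, of 70.0 kb, was covered over 87.0% in B6 and 59.1% in KI, whereas the rest of the transcript, with all later exons, was covered over 100% in both. Intron 1 of Stag1, of 61.4 kb, was covered over 97.1% and 81.6%, and the rest over 100% and 99.6%. The split was the same for refined peaks in Nipbl, where intron 1 held 7 of 8 peaks in B6 and 16 of 17 in KI. In Stag1 it held 1 of 8 peaks in B6 and 11 of 21 in KI. A first intron less covered than the rest of the transcript was common, being found in 89.6% of well covered genes with a first intron of at least 10 kb in B6 and 90.9% in KI, and in 2 of 2 members of that kind. Over those 1959 genes the median coverage of the first intron was 91.6% in B6 and 82.5% in KI, and that of the rest was 100% in both. The first intron of Stag1 lay above the B6 median and below the KI median, and that of Nipbl lay below both.

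**Figure D2:**
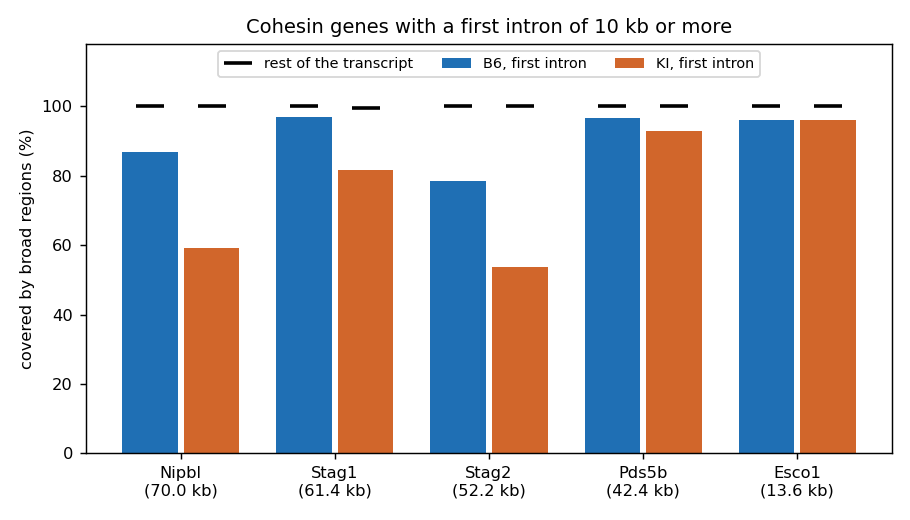
Bars give the share of the first intron covered by broad regions (percent) and black marks that of the rest of the transcript, in B6 (blue) and KI (orange), for the 5 cohesin pathway genes whose first intron is at least 10 kb (length under each name). Nipbl, Stag1 and Stag2, with first introns of 52.2 to 70.0 kb, have shorter bars in KI than in B6 while the rest of each transcript stays at 99.6% or more. The bar of Pds5b is also shorter in KI (96.5% in B6 and 93.0% in KI), and that of Esco1 is equal in both strains.

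Across all members, coverage was lower in KI in Rec8, Stag1, Nipbl and Wapal and equal in the others, 4 of 9 genes, beside 44.4% of the genes at least 50% covered in both strains. KI had more merged regions in 2 of 9 genes, Stag1 and Nipbl, beside 21.5% of those genes. Long genes in general were in more pieces in KI. Genes of 200 kb or more had a median of 9 regions in B6 and 19 in KI, and genes of 100 to 200 kb 2 and 5, so that Stag1, with 4 and 9, had fewer pieces than the median gene of its length class and Nipbl, with 3 and 8, more. In the class of 50 to 100 kb the medians were 1 and 2, and Smc1b and Wapal had 2 in both strains. Of the Sertoli markers, whose values are given above, Wt1, Sox9, Amh and Clu were also less covered in KI, and Inha was at 0% in both strains. The part of these markers in the differences was not tested.

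**Figure D3:**
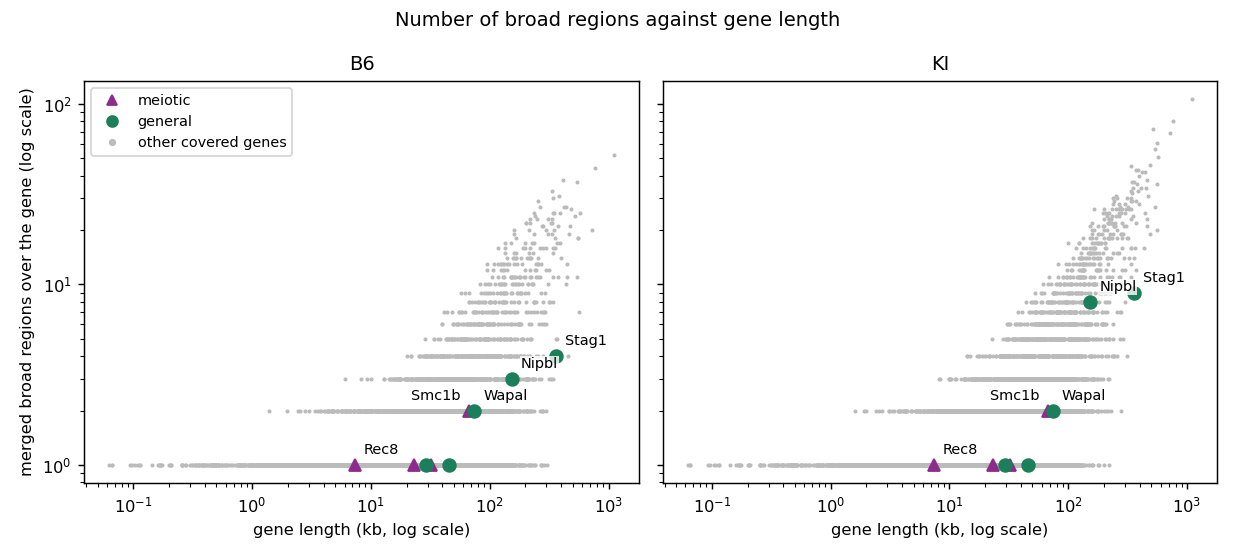
The number of merged broad regions over a gene is plotted against its length in kb, both on log scales, for the 8919 genes at least 50% covered in both strains (grey), the meiotic cohesin genes (triangles) and the general ones (circles), in B6 on the left and KI on the right. Stag1 moves from 4 to 9 regions and Nipbl from 3 to 8, within the spread of other long genes, and the 7 remaining members keep 1 or 2.

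Measured from the start of the representative transcript, coverage began at 0 bp in Rad21l and Stag3 (Stag3-001 starts within the annotated gene, inside the region), at 387 bp in Smc1b, at 613 bp in Smc3 and at 1306 bp in Rad21, each with the same value in both strains. It began later in KI than in B6 in Rec8 (627 and 1127 bp), Wapal (887 and 1387 bp) and Stag1 (2134 and 3134 bp), and at 6963 bp in both for Nipbl. The 3 earliest starts were all in meiotic genes, while Rec8 fell among the general ones. Transcript starts were covered in 2 of 9 members, beside 13.0% of 8915 well covered genes in B6 and 12.5% in KI, and the median over such genes was 841 bp in B6 and 901 bp in KI. The quartiles of 393 and 1529 bp in B6 span Rec8, Rad21, Smc3 and Wapal, with Rad21l, Smc1b and Stag3 below them and Stag1 and Nipbl above.

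Taken instead as the 5′ edge of the region with the most overlap, the start relative to the gene's 5′ end had a median of 210 bp in the meiotic genes in both strains, and of 34387 bp in B6 and 34887 bp in KI in the general genes. This large value came from Stag1, Nipbl and Wapal, whose longest region is not the first. The edge lay 47.8 kb into Stag1 in B6 and 102.8 kb in KI, and 61.0 and 68.0 kb into Nipbl. The first covered base from the gene's 5′ end had a median of 887 bp in B6 and 1387 bp in KI over the general genes.

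**Figure D4:**
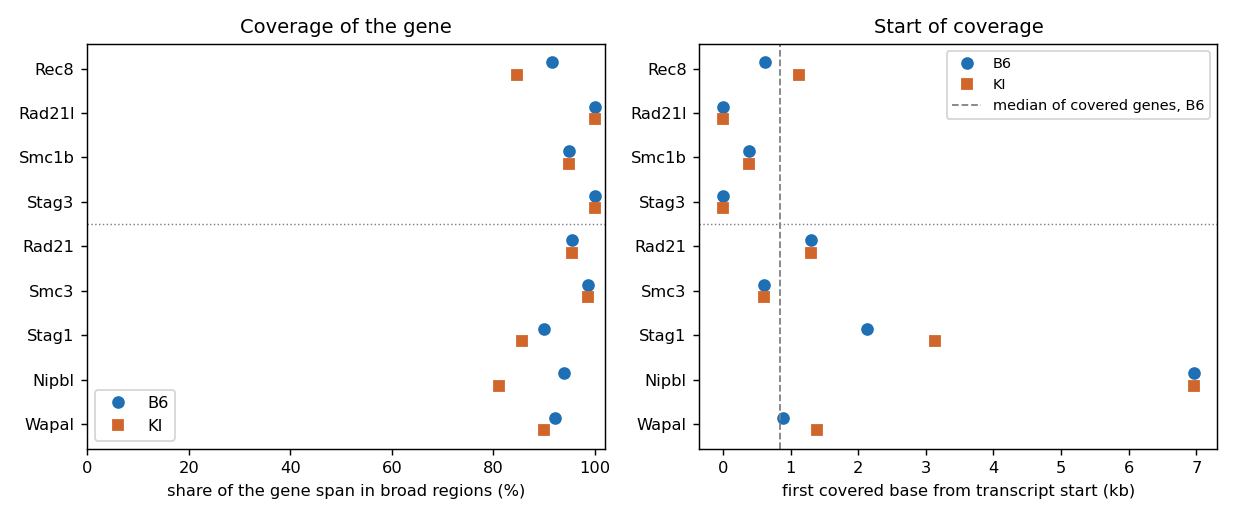
The left panel gives the share of each gene span in broad regions (percent) and the right panel the distance from the representative transcript start to the first covered base (kb), in B6 (circles) and KI (squares), with meiotic genes above the dotted line and the B6 median of well covered genes (841 bp) dashed. All members sit above 80% on the left, and on the right Nipbl stands apart at 6963 bp in both strains.

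Within the meiotic genes lay 4 refined peaks of the B6 list and 3 of the KI list, or 3.08 and 2.31 per 100 kb, and the general genes held 21 and 44, or 3.17 and 6.64 per 100 kb. In B6 the densities of the groups were thus close, and with spans widened by 5000 bp the meiotic counts were 7 and 6. Well covered genes as a whole had 6.70 peaks per 100 kb in B6 and 9.82 in KI, so both groups lay below that level in each list. At least 1 refined peak fell in 8 of 9 members in B6 and 7 of 9 in KI, beside 52.7% and 54.9% of all protein-coding genes. Refined peaks lie within broad regions and all 9 members were well covered, so this comparison cannot show an excess. Well covered genes under 20 kb, the shortest length class, had a median of 1 peak in each strain. The larger number of member peaks in KI came from 2 genes, since Stag1 went from 8 to 21 peaks and Nipbl from 8 to 17. The other 7 genes together had 9 in each strain. Of the peaks, 20 of 25 in B6 and 42 of 47 in KI lay in introns, and 5 and 4 overlapped coding exons.

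A refined peak of the other strain was overlapped by 3 of 25 B6 peaks and 3 of 47 KI peaks, where the same share over all protein-coding genes was 19.0% in B6 and 15.9% in KI. With edges up to 500 bp apart counted as shared, the numbers were 8 of 25 and 8 of 47. All 3 overlaps were in general genes, 2 in Stag1 and 1 in Wapal, and in the meiotic genes 0 of 4 B6 peaks and 0 of 3 KI peaks overlapped. Most of the others stood in a broad region of the other strain, so that in all 22 of 25 B6 peaks and 47 of 47 KI peaks touched the broad list of the other strain. The 3 B6 peaks outside the KI lists were 2 in the leading stretch of Stag1 and 1 in intron 1 of Nipbl. Shared peaks are shown because they are the places at which the narrow lists of both strains coincide. The sequences are the middle 200 bases of the overlap on the plus strand, in lower case with nothing marked, for the pair before the start of Stag1-001, the pair in its intron 1 and the pair over exon 3 of Wapal.
Stag1 before Stag1-001, chr9:100541170-100541369 (plus strand): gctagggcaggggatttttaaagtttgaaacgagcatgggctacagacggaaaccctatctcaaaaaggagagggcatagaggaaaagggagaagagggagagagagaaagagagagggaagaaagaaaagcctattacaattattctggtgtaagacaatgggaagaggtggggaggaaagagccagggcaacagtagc
Stag1 intron 1, chr9:100551647-100551846 (plus strand): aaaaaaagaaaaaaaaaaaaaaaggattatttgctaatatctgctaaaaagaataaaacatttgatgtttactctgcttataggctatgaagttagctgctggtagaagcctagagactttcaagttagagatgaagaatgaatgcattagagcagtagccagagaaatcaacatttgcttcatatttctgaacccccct
Wapal exon 3, chr14:35504873-35505072 (plus strand): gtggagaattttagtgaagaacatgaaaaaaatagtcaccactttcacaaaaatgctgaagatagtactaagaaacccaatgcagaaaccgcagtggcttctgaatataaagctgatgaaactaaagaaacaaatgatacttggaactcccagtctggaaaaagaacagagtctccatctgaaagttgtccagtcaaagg
The overlaps were 489 and 208 bp in Stag1 and 534 bp in Wapal, and these sequences hold 2, 0 and 1 CpG. Whether PRDM9 bound at any of these peaks was not tested, since no map of its sites was used here.

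Paralogues with a common role could be compared within the complex. Of the kleisin genes, Rad21l was covered over 100% in both strains, Rad21 over 95.5% in both and Rec8 over 91.5% in B6 and 84.7% in KI. Smc1b, at 94.96% in both, stood beside its X-linked general counterpart Smc1a, at 90.2% in B6 and 89.1% in KI, where coverage began 4530 and 5030 bp from the 5′ end. Stag3, at 99.9% in both, stood beside Stag1 and the X-linked Stag2, which was covered over 91.0% in B6 and 80.8% in KI in 3 and 8 regions. Intron 1 of Stag2, of 52.2 kb, was covered over 78.7% and 53.7%, and the rest of its transcript over 100% in both.

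Other genes of the pathway were marked as fully. All 14 examined (Smc1a, Stag2, Pds5a, Pds5b, Mau2, Esco1, Esco2, Cdca5, Sgol1, Sgol2, Espl1, Pttg1, Hdac8 and Ctcf) were at least 50% covered in both strains. Over all protein-coding genes that share was 43.0% in B6 and 41.2% in KI. Coverage ranged from 87.5% for Pttg1, which encodes securin, to 99.7% for Cdca5, which encodes the WAPL antagonist sororin, in B6, and from 80.8% for Stag2 to 99.5% for Mau2, the partner of NIPBL in loading, in KI. Within these genes lay 47 refined peaks in the B6 list and 83 in the KI list, or 5.65 and 9.98 per 100 kb. Well covered genes as a whole had 6.70 and 9.82 per 100 kb. Hdac8, an X-linked gene for the SMC3 deacetylase, was singled out after its values were seen. It had 5 regions in B6 and 18 in KI, with 22 and 46 refined peaks and coverage of 98.4% and 87.9%. It is 221 kb long, and genes of 200 kb or more had medians of 9 and 19 regions and of 22 and 40 refined peaks.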

How the data were processed

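The authors sequenced H3K36me3 ChIP and input DNA from nuclei that were fixed with formaldehyde and digested with MNase, trimmed the reads, aligned them to mm9 with BWA (1.2.3 in the submitters' processing notes), kept unique alignments, merged the replicates of a strain and called peaks with ZINBA. The deposited lists give where each region lies (chromosome and both ends) and no count, height or score. Both ends were taken as part of a region, with the first base of a chromosome as 1. Coverage used joined broad regions and gene spans of the GENCODE annotation for this build. The representative transcript was the coding transcript with the greatest summed exon length. A refined peak was placed in a gene by any overlap.

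Work was done in Python 3.11.15 with numpy 2.4.6, pandas 2.3.3, numba 0.67.0, pysam 0.24.0, samtools 1.23.1 and matplotlib 3.10.9, and coverage of all 9 genes was the same with bedtools 2.31.1. The code was tested on simulated intervals and sequences. All 9 members were named, and the other genes by the extremes of coverage and X linkage. Members and lists were chosen with earlier results of these data known. No test was made, for want of replicates. Alternatives were the joining of gaps, gene limits, weighting, coverage limits and peak overlap. Use of the representative transcript and leaving out Stag1 were added after seeing the data. The number of columns of unknown sample was 0.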

Additional observations from a re-analysis of the deposited data

How the results depend on the processing

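Of 54 recalculated values, 34 stayed near the value given, 18 moved and 2 changed sign, and all 9 genes kept at least 75% coverage, and 8 in B6 and 6 in KI at least 90%. Coverage of the general genes in B6 (91.9%) was 93.8% as a median, 96.9% over representative transcripts and 94.3% without Stag1, and in KI (86.4%) it was 90.03% as a median and 91.7% over representative transcripts. The meiotic genes were at 96.9% and 96.5% over representative transcripts. Refined peaks in the meiotic genes numbered 7 in B6 and 6 in KI with spans widened by 5000 bp, and those in the general genes 13 and 23 without Stag1. With gaps of up to 1000 bp filled, the median start of the main region in the meiotic genes was at -4349 bp in B6 and -3849 bp in KI, upstream of the 5′ end, because their regions joined those of neighbours, and that of the general genes in B6 was at 12963 bp. As the first covered base, the general median was 887 bp in B6 and 1387 bp in KI, or 1306 and 1387 bp from the representative transcript. With edges up to 500 bp apart, 8 B6 and 8 KI peaks were shared, and 22 and 47 when the other strain's broad list also counted. No replicate could be left out, since the lists are pooled. No paired analysis was possible because each strain has 1 pooled list. Depth is not in the lists, so gaps cannot be set against reads.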

Other observations

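Short motifs were looked for from 250 bases before to 50 bases after the start of each gene's representative transcript, on both strands. TCCCGC, an E2F-type core, was found at 4 of 9 members (Smc1b, Stag3, Smc3 and Stag1), beside 25.1% of 22359 gene starts. CACGTG, an E-box, was found at 1 of 9, Stag3, beside 7.80% of starts. These are matches of letters only.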
